A study of Homo sapiens with 68 samples.

Results

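Peaks on the mitochondrial genome (chrM) were described in peak lists from TLC-CLIP, a method in which a protein is crosslinked to RNA with ultraviolet light, immunoprecipitated, and sequenced with the RNA fragments that stay attached to it. All listed peaks on chrM were taken, by strand and by the gene identifier in the peak name. There were 7244 of them among 15800601 peaks in 68 libraries (0.0458%), and 6739 lay on the + strand and 505 on the - strand. Every library was made from HEK293T, a line derived from human embryonic kidney, and each of 34 groups had 2 replicates.

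The antibodies were directed against hnRNPA1, hnRNPc (antibody against hnRNP C1/2), hnRNPI and RBFOX2. Each was profiled from 50000 crosslinked cells digested with 0.005 U of RNase, named lowRNase in the labels, with PAGE (gel electrophoresis and excision of the RNA-protein complexes). The same was done without PAGE (noPAGE), without PAGE and with an added RecJ digestion (an exonuclease that removes leftover adapter), and, from the titles, without ultraviolet light (noUV) with and without PAGE. hnRNPA1 and hnRNPc were also profiled with PAGE after 0.025 U of RNase (mediumRNase). hnRNPc and RBFOX2 were profiled with PAGE from 10000 cells with 0.001 U and from 1000 cells with 0.0001 U. hnRNPc was profiled without PAGE, with and without RecJ, in libraries titled 5k and 500, for which the label on cell number reads 50000. The last 8 libraries, named Background, hold RNA of hnRNPc immunoprecipitates from 10000 cells with 0.001 U, cut from the gel at 150 to 250, 100 to 150, 75 to 100 and 50 to 75 kDa. Nothing in the labels says that replicates were separate cultures, so each p-value below measures only the spread between these samples, which may be technical. The protocol text is the same for every sample and describes crosslinking, so the absence of crosslinking rests on titles alone.

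The mitochondrial genome is a small circle read from both strands into long precursor RNAs, which are cut at the tRNAs into ribosomal RNAs, messenger RNAs and tRNAs. RNR1 and RNR2 are the RNAs of the small and large subunit of the mitochondrial ribosome, and they are far more abundant than most mitochondrial messengers in growing cells. The mRNAs encode subunits of the respiratory chain and of ATP synthase, and ND6 is the only one read from the opposite strand. The hnRNPs and RBFOX2 are known chiefly as nuclear proteins that bind messenger RNA precursors, where they act in splicing and RNA handling, while mitochondrial RNA is made and used inside the organelle.

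Each peak name ends in a number that was taken to count the reads on that peak. These read numbers are unscaled, and the depth of the libraries is unknown, so levels were compared as shares within each list. The lists held between 303 and 523402 peaks (median 212572). Peaks on the ribosomal RNAs are narrow and lie close together, so a sum of read numbers may count the same reads several times, which was not tested. In hnRNPA1 noPAGE replicate 1, chrM held 24.2% of the listed reads by the sum, 5.60% when each peak's reads were multiplied by its width, and 6.01% when neighbouring peaks were joined. Directions below were therefore also computed with reads times width. Replicate 1 of hnRNPc lowRNase stood apart, with 3268 peaks against 214849 in replicate 2, and results that turn on it are given with and without it.

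Of 37 mitochondrial genes, 29 had a peak in at least 1 library: both ribosomal RNAs, 13 of 13 mRNAs and 14 of 22 tRNAs. The 8 genes with no peak were the tRNAs TRNQ, TRNW, TRNA, TRNN, TRNS1, TRNK, TRNR and TRNE. RNR2 (ENSG00000210082) carried 2033 peaks, 28.1% of those on chrM, and RNR1 (ENSG00000211459) carried 860, or 11.9%. The 12 mRNAs of the + strand together had 3300 peaks (45.6%), led in number by COX1 (483), a core subunit of cytochrome oxidase, and ND5 (433), a subunit of complex I. ND6 (ENSG00000198695), also a complex I subunit, had 266 peaks, or 3.67%, and the tRNAs had 785, or 10.8%. RNR1 and RNR2 had a peak in 68 of 68 libraries, COX1 in 67, the tRNA TRNP in 66, COX3 in 66 and TRNY in 64. At the other end, TRNI and TRNL2 had one in 10 libraries each.

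The peaks on the - strand belonged to ND6 and to the tRNAs TRNC, TRNY and TRNP. Peaks were listed within genes and on the gene's strand, so RNA opposite to a gene is not visible in these lists. At least 1 peak of at least 1 library covered 10646 nt on the + strand and 518 nt on the - strand.

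By reads, the ribosomal RNAs made up most of the signal in every library. RNR2 held between 49.7% of the chrM reads, in noUV hnRNPA1 replicate 1, and 96.6%, in hnRNPc mediumRNase replicate 1, with a median of 83.6%. RNR1 held from 1.41% to 45.2%, with a median of 9.39%. The + strand mRNAs had a median of 3.06%, the tRNAs 0.666% and ND6 0.359%. The - strand as a whole held a median of 1.04% of chrM reads and at most 8.72%, in hnRNPI lowRNase replicate 2.

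The number of chrM peaks varied little beside the length of the lists. It ran from 21 to 213 per library (median 108), so that chrM made up from 0.00734% to 9.90% of the peaks of a list. The peaks were high and narrow. Their median number of reads exceeded the median over all peaks in 68 of 68 libraries, at 23 to 1778 reads (median 301) against 5 to 14. Their median width, 19 to 52.5 nt, was below that of all peaks (32 to 75 nt) in 64 of 68 libraries. The highest peak of the whole list was a chrM peak in 37 libraries, among them 20 of 20 hnRNPA1 and hnRNPc libraries without PAGE, and in none of the RBFOX2 and hnRNPI libraries. Of the 100 peaks with most reads, from 3 (hnRNPI lowRNase replicate 2) to 81 (noUV hnRNPc replicate 1) were on chrM.

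**Figure D1:**
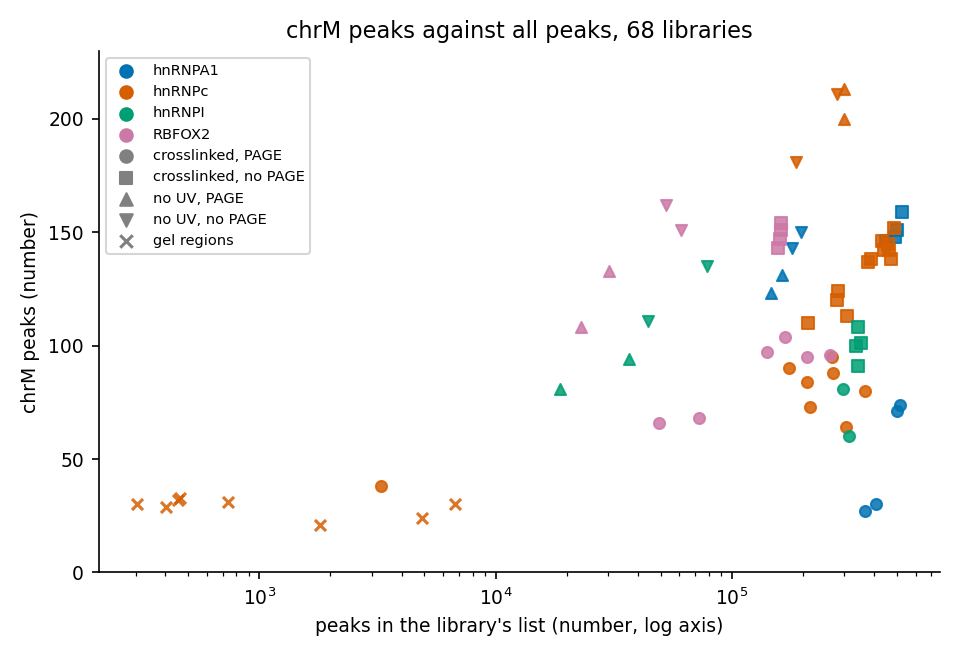
Number of chrM peaks (vertical axis) against the number of all peaks in the list (log10 axis), 1 point per library, coloured by protein and shaped by condition. Crosslinked libraries without PAGE lie above those with PAGE for each protein, and the gel region libraries have 21 to 33 chrM peaks.

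The large-subunit RNA carried its peaks at a few fixed places. In 68 of 68 libraries a peak covered each of chrM:1709-1772, chrM:1874-1892 and chrM:2214-2282, all on the + strand within RNR2 (hg19). For the 4 proteins in crosslinked libraries without PAGE, the stretches covered in both replicates were close to the same. In hnRNPA1 they were chrM:1704-1791, chrM:1828-1920, chrM:1994-2158, chrM:2200-2303 and chrM:2791-2900, and in each of the other 3 proteins the matching stretches began and ended close to these. The stretch chrM:2377-2444 was added in hnRNPc, with counterparts in hnRNPI and RBFOX2, and chrM:2503-2561 in RBFOX2, with a counterpart in hnRNPI. hnRNPA1 had neither of these in its crosslinked libraries without PAGE. Without crosslinking and PAGE it did cover chrM:2403-2458 in both replicates, at 45.8% and 37.7% of the gene's highest peak.

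The highest RNR2 peak of hnRNPA1 without PAGE lay at chrM:2264-2303 with 112786 reads in replicate 1 and at chrM:2264-2304 with 117408 reads in replicate 2. For hnRNPc it was chrM:2264-2299 with 40714 reads and chrM:2264-2298 with 44092. For RBFOX2 it was chrM:2264-2298 with 25627 reads and chrM:2264-2297 with 27284. In these 3 proteins the peak therefore began at one nucleotide in all 6 libraries. hnRNPI differed, with its highest peak just before it, at chrM:2212-2257 with 9279 reads and chrM:2201-2257 with 8093.

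The most frequent start of the highest RNR2 peak in the 24 crosslinked libraries without PAGE was 2264. That start, or 2263, was found in 21 of these 24, the libraries that set it, so this count is high by choice. It was found in 4 of 20 crosslinked libraries with PAGE and in none of 16 libraries without crosslinking. The stretch chrM:2214-2282, which holds this start, was covered by a peak in 68 of 68 libraries. Without crosslinking, the highest peak of hnRNPA1 lay in the 5′ part of the gene, at chrM:1725-1748 in both replicates with PAGE, with 54223 and 40901 reads. In RBFOX2 without crosslinking and PAGE it lay at chrM:2518-2566 with 10675 reads and chrM:2518-2572 with 17243.

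In crosslinked libraries with PAGE the profile of RNR2 was narrower. The stretch chrM:1994-2158, which reached 45.8% and 46.6% of the height of the gene's highest peak in the 2 hnRNPA1 replicates without PAGE, had no nucleotide covered in both replicates of any of the 4 lowRNase groups. With PAGE and no crosslinking, parts of it were covered in both replicates. These lay within chrM:1967-2022 and chrM:2137-2165 in hnRNPA1 and chrM:1997-2029 in hnRNPI, with none in hnRNPc and RBFOX2. Without crosslinking and PAGE, hnRNPA1 covered chrM:1993-2027 of it in both replicates and hnRNPI chrM:1995-2059, while hnRNPc and RBFOX2 covered none. In those libraries hnRNPc instead covered chrM:2630-2900 and RBFOX2 chrM:2633-2896, further to the 5′ side than the crosslinked stretches that begin at 2766 and 2767. A stretch near the 3′ end, chrM:3158-3182, appeared with PAGE in hnRNPA1, at 25.6% and 21.8% of the gene's highest peak. In hnRNPc it ran over chrM:3127-3182, at 36.8% and 38.9%. Neither protein had it in both replicates without PAGE.

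**Figure D2:**
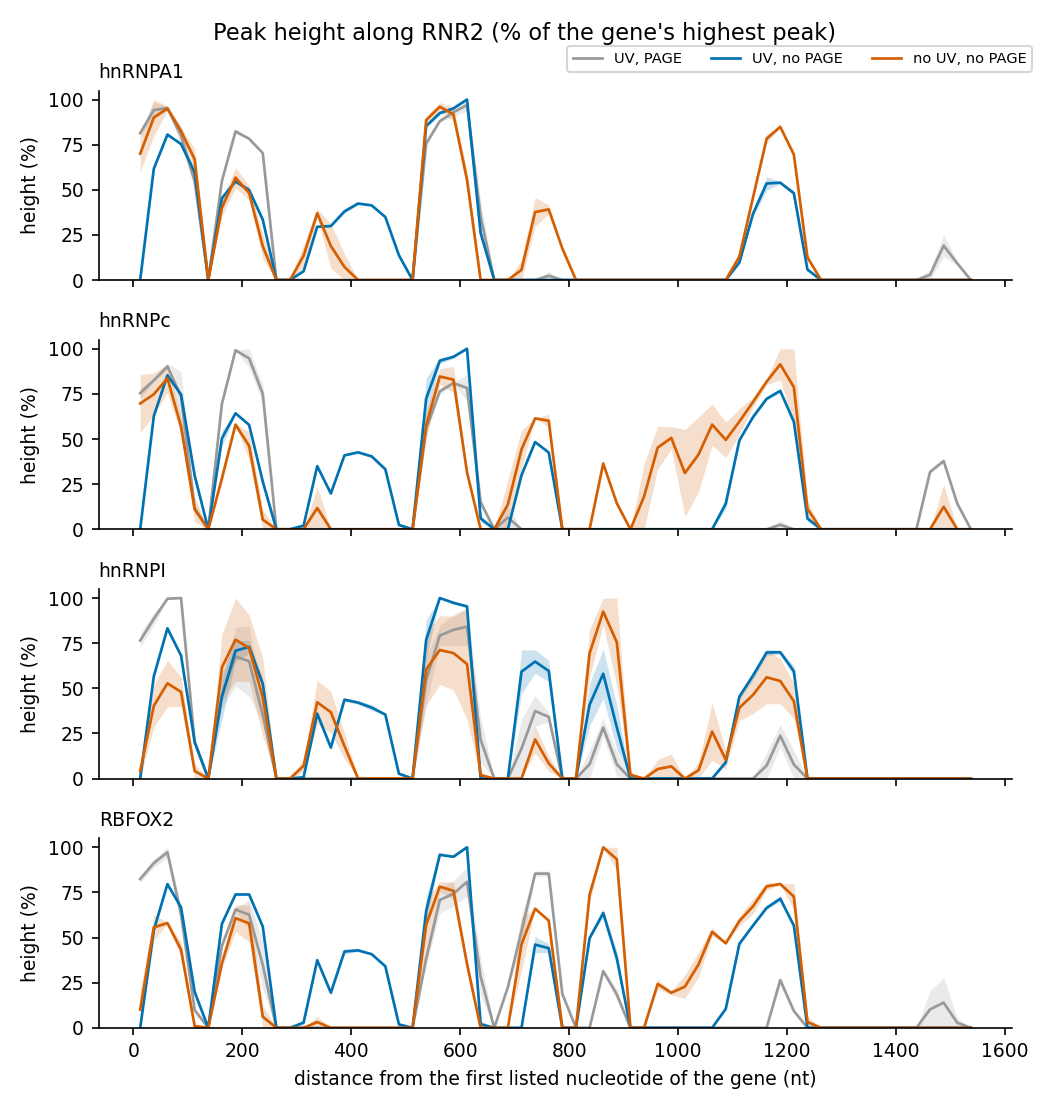
Peak height along RNR2 in bins of 25 nt, as percent of the gene's highest position, against distance in nt from the first nucleotide of the gene covered by any peak. Lines are means of 2 replicates and bands their range, by protein, for crosslinked cells with PAGE, crosslinked cells without PAGE and non-crosslinked cells without PAGE. The block that stands for chrM:1994-2158 is seen in all 4 proteins in crosslinked cells without PAGE and not with PAGE.

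Across the 62 bins of RNR2, the Spearman correlation between replicates had a median of 0.968 over 34 groups, and between proteins without PAGE a median of 0.885 over 6 pairs. Between libraries with and without crosslinking of one protein it was 0.619 to 0.805, and between libraries with and without PAGE 0.485 to 0.717. RecJ digestion left it at 0.977 to 0.998. These values describe bins that share a library and a gene, and carry no test.

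RNR1, the small-subunit RNA, had its main site in its 3′ part. The stretch chrM:1406-1464 was covered in 68 of 68 libraries, and the highest RNR1 peak touched it in 64. Without PAGE the highest peak of hnRNPA1 was chrM:1424-1455 with 23403 reads and chrM:1424-1463 with 25752, and that of RBFOX2 was chrM:1413-1463 with 10462 reads and chrM:1413-1446 with 11377. Another site near chrM:925-982 reached 39.1% and 35.4% of that height in hnRNPI, and lay at matching places in the other 3 proteins. The place of the main site was the same without crosslinking. In hnRNPA1 without crosslinking and PAGE it was chrM:1424-1500 in both replicates, with 99181 and 104213 reads.

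Among the mRNAs, COX3 (ENSG00000198938), a subunit of cytochrome oxidase, differed in where its highest peak lay. hnRNPA1 without PAGE covered chrM:9229-9362 and chrM:9539-9661 in both replicates, and its highest COX3 peak, with 489 and 536 reads, lay in the latter, in the middle of the gene. hnRNPc covered chrM:9733-9934 near the 3′ end, where its highest peak had 2167 and 2328 reads. hnRNPI also had its highest COX3 peak there, in chrM:9752-9902, with 392 and 306 reads. Both also covered a 5′ stretch, chrM:9320-9339 in hnRNPc at 22.9% and 28.8% of the gene's highest peak and chrM:9253-9359 in hnRNPI at 44.6% and 51.3%. RBFOX2 had peaks in all 3 places, and its highest lay at the 5′ end in replicate 1 (286 reads) and near the 3′ end in replicate 2 (388 reads). The place was kept without crosslinking and PAGE in hnRNPA1, at chrM:9539-9666, and in hnRNPc, at chrM:9737-9923.

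**Figure D3:**
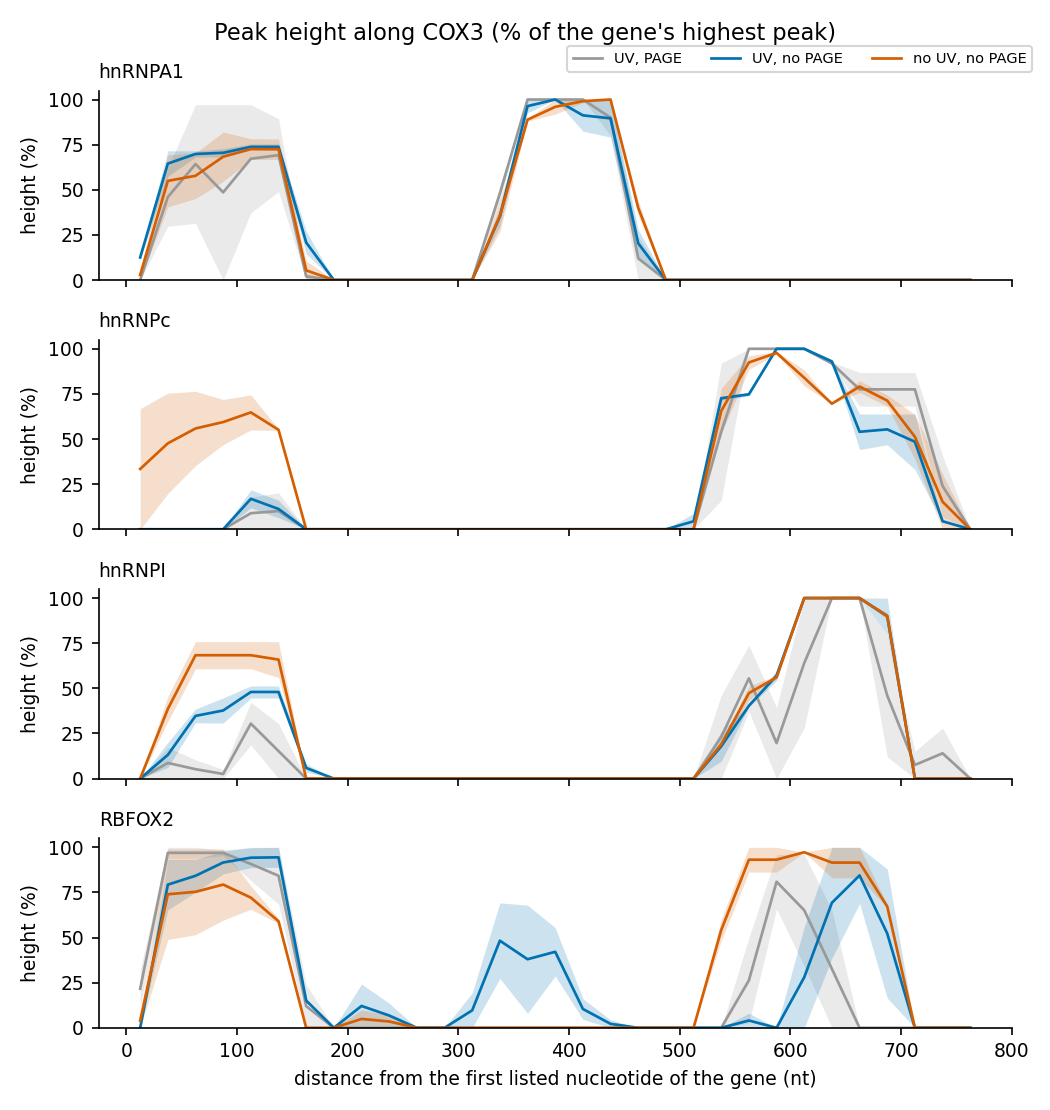
Peak height along COX3 in bins of 25 nt, as percent of the gene's highest position, against distance in nt from the first nucleotide covered by any peak. Lines are means of 2 replicates and bands their range. hnRNPA1 is highest in the middle of the gene and hnRNPc towards its 3′ end in all 3 conditions. For hnRNPA1 in crosslinked cells with PAGE the counts are low. In stretches covered in both replicates, replicate 1 had 51 reads in the middle and 25 in the 5′ part, and replicate 2 had 35 and 34.

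Without PAGE, ND6 held a larger share of chrM reads in hnRNPA1 than in the other 3 proteins. Its best matched pair of peaks in hnRNPA1 had 7235 reads at chrM:14378-14388 in replicate 1 and 9958 reads at chrM:14334-14388 in replicate 2, and the highest ND6 peak of replicate 1 had 8458. ND6 held 1.45% and 1.50% of the chrM reads of hnRNPA1 there. It held 0.230% and 0.293% in hnRNPc, 0.313% and 0.409% in hnRNPI and 0.332% and 0.263% in RBFOX2. The hnRNPA1 replicates lay above the 6 other libraries, but the difference between proteins did not pass the test there (p = 0.0571, adjusted p = 0.0894 over 36 added tests, exact permutation test). With PAGE the share of hnRNPI, 2.58% and 3.69%, was above that of hnRNPA1, 2.04% and 2.55%. COX2, a subunit of cytochrome oxidase, had the mRNA peak that ranked best over both replicates of hnRNPI without PAGE, in chrM:7637-7755, with 1402 and 1210 reads. For RBFOX2 it was ATP8, a small ATP synthase subunit, at chrM:8409-8502 with 1073 reads and chrM:8408-8503 with 1230, although a COX1 peak reached 1096 reads in replicate 1.

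Among the crosslinked 50k lowRNase and noPAGE libraries, the share of chrM reads on + strand mRNAs was highest in hnRNPI. It was 10.6% and 8.04% with PAGE and 9.48% and 11.0% without. In hnRNPA1 it was 1.03% and 1.34% with PAGE and 1.25% and 1.33% without. hnRNPc had 2.61% and 2.78%, then 3.29% and 3.19%, and RBFOX2 had 3.08% and 3.22%, then 3.03% and 3.23%. hnRNPI lay above the other 3 proteins in every one of these libraries. Without crosslinking and PAGE, hnRNPI (9.07% and 11.3%) overlapped hnRNPc (9.34% and 10.8%).

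**Figure D4:**
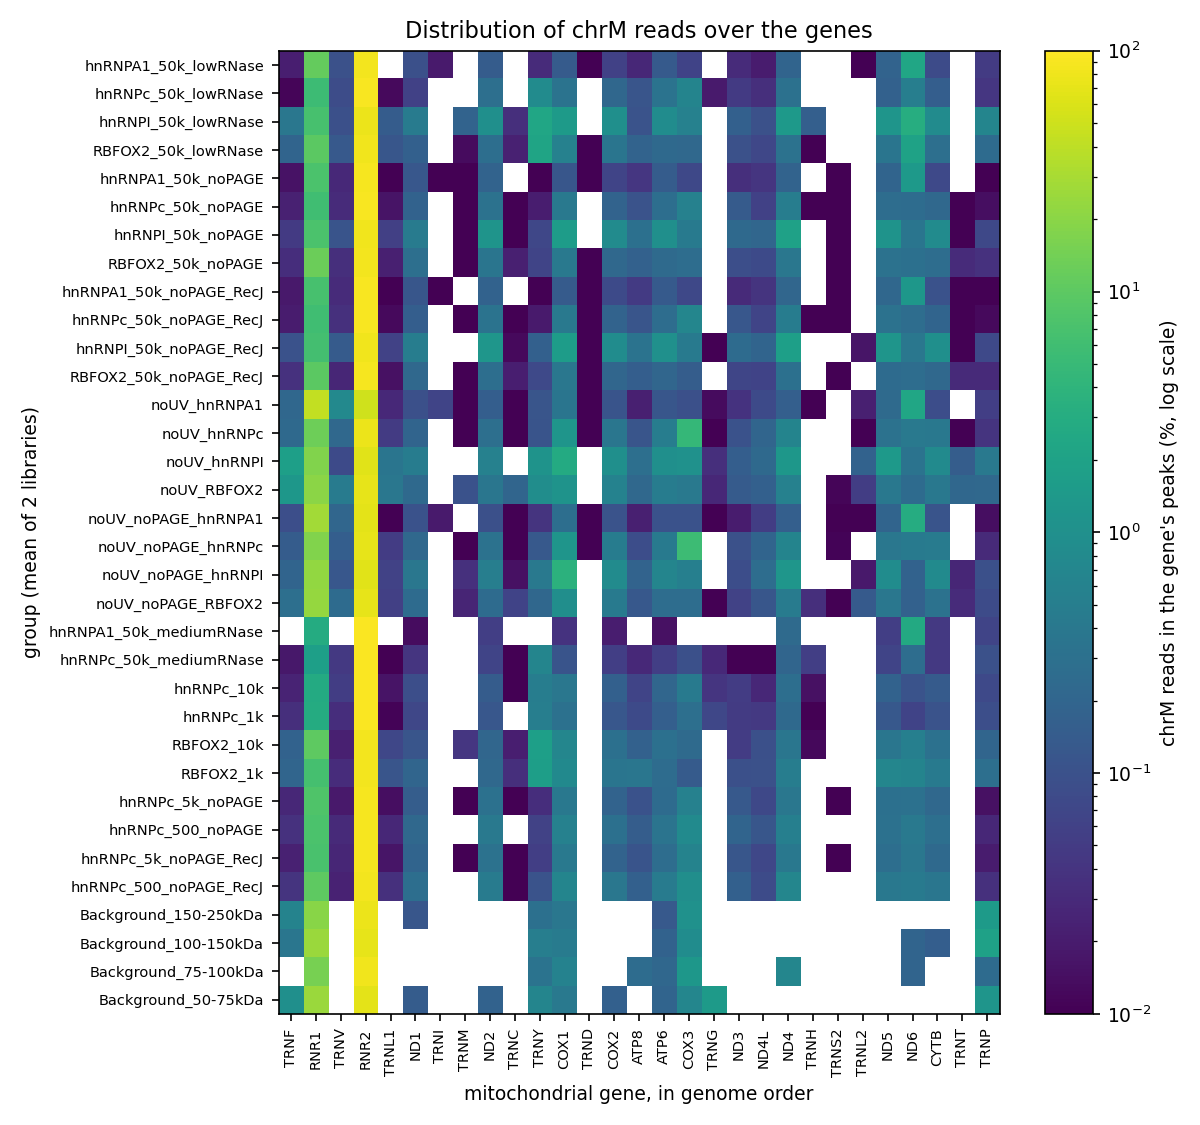
Share of chrM reads on each mitochondrial gene (columns, in genome order) in each group (rows), as the mean of 2 replicates on a log10 colour scale, with shares below 0.01% in the darkest colour and white for no peak. RNR2 and RNR1 are the brightest columns in every group, and COX3 is brighter in the 2 groups of hnRNPc without crosslinking than in the crosslinked groups of hnRNPc.

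The first comparison asked whether the gel step changed how much mitochondrial RNA was listed. Without PAGE, chrM held more of the listed reads in all 4 proteins. The share went from 1.99% and 1.50% to 24.2% and 24.5% in hnRNPA1, a 14.1-fold difference of geometric means. It went from 0.349% and 0.350% to 2.04% and 1.78% in hnRNPI, a 5.44-fold difference. In RBFOX2 it went from 1.49% and 1.74% to 6.82% and 7.39%, a 4.42-fold difference. In these 3 proteins the replicates of the groups did not overlap.

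In hnRNPc the share was 19.9% and 3.55% with PAGE and 13.2% and 13.0% without, so the groups overlapped, with replicate 1 of the PAGE group on the far side. Averaged over the 4 proteins, the log2 share was 2.26 higher without PAGE (exact two-sided permutation test within proteins, p = 0.00463, adjusted p = 0.0139 over 12 tests). The smallest p that this design allows is 0.00154. Without hnRNPc lowRNase replicate 1 the difference was 2.57. With reads times width it was 1.78, and hnRNPA1 went from 0.653% and 0.574% to 5.60% and 5.51%.

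**Figure D5:**
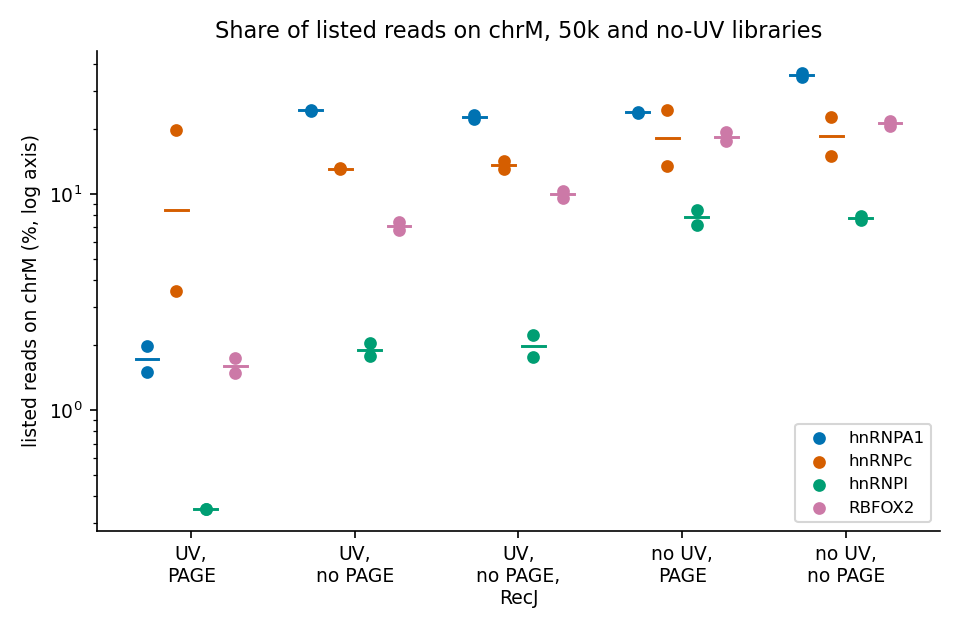
Percent of listed reads on chrM in the 50k and non-crosslinked libraries, by condition and protein, on a log10 axis, with 1 point per library and a bar at the geometric mean of the 2 replicates. hnRNPA1 lies near 24% without PAGE against 1.5% to 2.0% with it, and the 2 replicates of hnRNPc lowRNase lie at 19.9% and 3.55%.

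The number of chrM peaks also rose without PAGE, from 74 and 71 to 151 and 159 in hnRNPA1, from 38 and 73 to 142 and 138 in hnRNPc, from 60 and 81 to 101 and 91 in hnRNPI, and from 96 and 95 to 143 and 151 in RBFOX2. The mean log2 difference was 0.89 (exact two-sided permutation test, adjusted p = 0.00694 over 36 tests added after values had been seen). The share of listed peaks on chrM did not differ by the test, at -0.05 on the log2 scale (exact two-sided permutation test, p = 0.989, adjusted p = 0.989 over 12 tests). That value rests on hnRNPc lowRNase replicate 1, and without it the difference was 0.59 (p = 0.0231, exact permutation test).

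Within chrM, the tRNAs and ND6 took a smaller share of a chrM total that was itself a larger part of the listed reads without PAGE. The tRNA share fell from 2.84% and 2.97% to 0.307% and 0.223% in RBFOX2, and from 0.891% and 1.15% to 0.116% and 0.104% in hnRNPc. In hnRNPA1 it went from 0.220% and 0.238% to 0.0623% and 0.0806%, and in hnRNPI from 1.20% and 6.84% to 0.438% and 0.313%. Scaled to the total of each list, as RPM of listed reads, the tRNAs of hnRNPA1 went the other way, from 43.8 and 35.8 to 151 and 198. The mean log2 difference of the share was -2.83 (adjusted p = 0.00694 over 36 added tests, exact two-sided permutation test). TRNY (ENSG00000210144), the tyrosine tRNA on the - strand, made up much of this in RBFOX2, with 2.16% and 2.15% of chrM reads with PAGE and 0.0765% and 0.0543% without. Its summed reads there went from 2168 and 1892 to 476 and 390.

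As a share of chrM reads, ND6 fell by 1.87 on the log2 scale without PAGE (adjusted p = 0.00694 over 36 added tests, exact two-sided permutation test). In hnRNPI its share went from 2.58% and 3.69% to 0.313% and 0.409%, and in RBFOX2 from 1.90% and 2.09% to 0.332% and 0.263%. In hnRNPA1 the shares were closer, at 2.04% and 2.55% against 1.45% and 1.50%. As RPM of listed reads, ND6 was higher without PAGE in hnRNPA1, at 3494 and 3682 against 406 and 383, and lower in RBFOX2, at 226 and 194 against 282 and 363. RNR2 rose by 0.05 (adjusted p = 0.0245, exact permutation test), and this turned to -0.02 with reads times width. RNR1, at -0.02, and the + strand mRNAs, at 0.13, did not pass the test (adjusted p = 0.917 and 0.117, exact permutation test). With reads times width they moved to -0.44 and 0.78, each with an unadjusted p of 0.00154 by the exact permutation test. Shares of the gene classes sum to the whole of chrM, so a fall in one class raises the others.

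The second comparison concerned RNA that was recovered without crosslinking. With PAGE, chrM held 24.0% and 23.8% of the listed reads of hnRNPA1 without ultraviolet light, against 1.99% and 1.50% with it. In hnRNPI it held 8.43% and 7.21% against 0.349% and 0.350%, a 22.3-fold difference, and in RBFOX2 19.3% and 17.5% against 1.49% and 1.74%, an 11.5-fold difference. In hnRNPc it held 24.6% and 13.5% against 19.9% and 3.55%, and these groups overlapped. The mean log2 difference was 3.23 (exact two-sided permutation test, p = 0.00309, adjusted p = 0.0123 over 12 tests). Without hnRNPc lowRNase replicate 1 it was 3.54.

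Without PAGE the omission of ultraviolet light also went with a higher share. It was 34.9% and 36.4% in hnRNPA1 against 24.2% and 24.5%, 22.8% and 15.0% in hnRNPc against 13.2% and 13.0%, 7.88% and 7.55% in hnRNPI against 2.04% and 1.78%, and 20.7% and 21.8% in RBFOX2 against 6.82% and 7.39%. The replicates did not overlap in any of the 4 proteins. The mean log2 difference was 1.16 (exact two-sided permutation test, p = 0.00154, the smallest this design gives, adjusted p = 0.00926 over 12 tests). The share of listed peaks on chrM was 1.83 higher on the log2 scale without PAGE (p = 0.00154, adjusted p = 0.00926, exact permutation test). The total of listed reads was lower without crosslinking in all 4 proteins, in RBFOX2 1.68e+06 and 2.09e+06 against 9.13e+06 and 9.71e+06. The summed chrM reads were lower too in hnRNPA1, hnRNPc and RBFOX2, in RBFOX2 347973 and 457494 against 622526 and 717956. In hnRNPI they overlapped. Depth is unknown, so the higher share does not show that more mitochondrial RNA was recovered.

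With PAGE the share of listed peaks was 2.08 higher without crosslinking (p = 0.0463, adjusted p = 0.0694 over 12 tests, exact two-sided permutation test), which did not pass after adjustment. This share rose in 3 of 4 proteins and fell in the mean of hnRNPc, where it was 0.0711% and 0.0668% against 1.16% and 0.0340%. The fall in hnRNPc rests on lowRNase replicate 1, and both values lay above replicate 2. The mean log2 difference over the proteins was 2.72 without hnRNPc lowRNase replicate 1 and 1.44 without replicate 2. The number of chrM peaks was 0.85 higher with PAGE (adjusted p = 0.0111 over 36 added tests, exact two-sided permutation test), from 131 and 123 peaks in hnRNPA1 against 74 and 71 to 213 and 200 in hnRNPc against 38 and 73. Without PAGE it differed by 0.21 (adjusted p = 0.0582, exact permutation test). The whole lists without crosslinking were shorter without PAGE in all 4 proteins, and with PAGE in hnRNPA1, hnRNPI and RBFOX2, for example 30170 and 22911 peaks in noUV RBFOX2 against 260610 and 208407 in RBFOX2 lowRNase. The non-crosslinked libraries are not numbered together with the 50k libraries in the series, so a difference of preparation, if there was one, and the missing ultraviolet light cannot be told apart.

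The small-subunit RNA gained share without crosslinking in each protein. Without PAGE, RNR1 went from 7.60% and 7.20% of chrM reads to 32.0% and 23.0% in hnRNPA1, and from 5.80% and 6.01% to 11.5% and 23.7% in hnRNPc. It went from 9.25% and 5.47% to 22.4% and 22.6% in hnRNPI, and from 11.5% and 13.6% to 22.4% and 24.4% in RBFOX2. The mean log2 difference was 1.48 without PAGE and 1.37 with PAGE (adjusted p = 0.00694 each over 36 added tests, exact two-sided permutation test). The largest share of any library was that of hnRNPA1 with PAGE and no crosslinking, at 45.2% and 41.0%.

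RNR2 fell by 0.32 on the log2 scale without PAGE and by 0.34 with PAGE (adjusted p = 0.00694 each, exact two-sided permutation test). The mean peak height per nucleotide of gene length, in unscaled reads, was accordingly closer between the 2 RNAs. RNR2 exceeded RNR1 by 5.87-fold and 5.60-fold in hnRNPA1 without PAGE, and by 1.10-fold and 1.46-fold without PAGE and crosslinking. In hnRNPA1 with PAGE and no crosslinking the ratio was 0.84 and 0.86. In RBFOX2 it went from 3.78 and 4.04 to 1.73 and 2.09 without PAGE.

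Transfer RNAs rose without crosslinking when PAGE was omitted, 5.42-fold in hnRNPA1, 4.64-fold in hnRNPc, 2.58-fold in hnRNPI and 4.55-fold in RBFOX2, as shares of chrM reads. The mean log2 difference was 2.05 (adjusted p = 0.00694 over 36 added tests, exact two-sided permutation test). TRNF, the phenylalanine tRNA that lies just before RNR1, went from 0.0389% and 0.0281% to 0.212% and 0.367% in RBFOX2. TRNV, the valine tRNA between RNR1 and RNR2, went from 0.0342% and 0.0338% to 0.258% and 0.238%. With PAGE the tRNA difference was 0.66 and did not pass (adjusted p = 0.206, exact permutation test).

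COX3 held a larger share without crosslinking in hnRNPc. It had 5.38% and 5.63% of chrM reads in 21 and 23 peaks without PAGE and crosslinking, and 4.35% and 4.78% in 23 and 21 peaks with PAGE. In crosslinked hnRNPc without PAGE it held 0.618% and 0.508% in 6 and 4 peaks. In hnRNPA1, hnRNPI and RBFOX2 without PAGE and crosslinking COX3 held 0.0621% to 0.577%. COX3 was singled out after its values were seen, and it carries no test of its own. Its highest peak had 2167 and 2328 reads in crosslinked hnRNPc without PAGE and 3167 and 2788 without crosslinking and PAGE. The shares sum over unlike numbers of peaks, so part of the gain can be repeated counting. Between the same groups, mean peak height per nucleotide of gene length, in unscaled reads, went from 404 and 509 to 863 and 916 for COX3. For RNR2 it went from 9700 and 10653 to 5798 and 4686.

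The + strand mRNAs as a class gained 0.77 with PAGE (adjusted p = 0.0111 over 36 added tests, exact two-sided permutation test), which fell to 0.46 with reads times width (p = 0.114, unadjusted, exact permutation test). Without PAGE they differed by 0.49 (adjusted p = 0.0903, exact permutation test), and this turned to -0.10 with reads times width. As a share of chrM reads, ND6 fell by 1.64 with PAGE (adjusted p = 0.0296, exact permutation test). Its RPM of listed reads was instead higher without crosslinking in hnRNPA1 (4481 and 6825 against 406 and 383), hnRNPI (302 and 220 against 89.9 and 129) and RBFOX2 (474 and 440 against 282 and 363), and the groups overlapped in hnRNPc. Without PAGE it went up 1.96-fold in hnRNPA1 and 1.61-fold in hnRNPc, and its share without crosslinking was 0.509 of that with it in hnRNPI and 0.571 in RBFOX2, for a mean log2 difference of -0.03 (adjusted p = 0.917, exact permutation test). Peaks on 35 stretches were present in 16 of 16 non-crosslinked libraries, among them stretches in TRNF, TRNV, TRNL1, ND1, COX1, ND4, ND6 and TRNP.

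The RecJ digestion was compared in 6 pairs of groups without PAGE. The share of listed reads differed by 0.05 on the log2 scale (exact two-sided permutation test, p = 0.428, adjusted p = 0.467 over 12 tests), and the share of peaks by 0.09 (p = 0.0673, adjusted p = 0.0897). In hnRNPA1 the shares were 22.3% and 23.2% with RecJ against 24.2% and 24.5% without. In RBFOX2 they were 10.3% and 9.61% against 6.82% and 7.39%, so that replicates did not overlap in either protein and the directions were opposite. The hnRNPA1 groups overlapped with reads times width, at 5.54% and 5.73% with RecJ against 5.60% and 5.51% without. In joined peaks they overlapped too, at 5.90% and 6.05% against 6.01% and 5.94%. None of the gene classes passed after adjustment over the 36 added tests, and the lowest adjusted p by the exact permutation test was 0.0579, for a gain of 0.25 in tRNAs.

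The 4 proteins differed in the share of listed reads. Differences between proteins made up 99.8% of the variance of the log2 share without PAGE (exact permutation test, p = 0.00952, the smallest this design gives, adjusted p = 0.0229 over 12 tests). The order was hnRNPA1 (24.2% and 24.5%), hnRNPc (13.2% and 13.0%), RBFOX2 (6.82% and 7.39%) and hnRNPI (2.04% and 1.78%), with no overlap between neighbours. The order of hnRNPc (3.44% and 3.39%) and RBFOX2 (3.58% and 3.73%) turned with reads times width, and in joined peaks it turned as well, at 3.53% and 3.49% against 4.65% and 4.87%. With PAGE they made up 86.8% (p = 0.0190, adjusted p = 0.0381, exact permutation test), and hnRNPA1 and RBFOX2 overlapped. This call was lost when hnRNPA1 replicate 1 or RBFOX2 replicate 1 was left out (87.1% and 86.9%, p = 0.0571 each) or when either hnRNPI replicate was (82.6% each, p = 0.0857, exact permutation test).

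For the share of listed peaks, proteins made up 99.6% of the variance without PAGE (p = 0.0286, adjusted p = 0.0490 over 12 tests, exact permutation test), and RBFOX2 lay apart at 0.0909% and 0.0935% against 0.0266% to 0.0322% in the others. The call was lost without hnRNPA1 replicate 1 or 2 (p = 0.0667 each) and without hnRNPI replicate 2 (p = 0.0952, exact permutation test). With PAGE proteins made up 55.5% (p = 0.190, adjusted p = 0.229, exact permutation test), which became 93.4% without hnRNPc replicate 1 (p = 0.0381, exact permutation test) and 99.4% without replicate 2 (p = 0.00952). Within chrM, the share on + strand mRNAs differed between proteins both with PAGE (adjusted p = 0.0245 over 36 added tests) and without (adjusted p = 0.0361, exact permutation test). The latter call was lost with the replicate number as a block (p = 0.0833, unadjusted, exact permutation test).

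In hnRNPc without PAGE, libraries titled with fewer cells had a lower share of chrM reads. The cell number rests on the titles, since the label reads 50000 for all of these libraries. The share was 13.2% and 13.0% for 50k, 9.10% and 9.46% for 5k, and 5.93% and 5.82% for 500. With RecJ it was 14.1% and 13.0%, 9.08% and 9.45%, then 5.82% and 4.58%. The groups did not overlap in either series, and the log2 difference of 500 from 50k was -1.16 without and -1.40 with RecJ. Groups of 2 cannot reach a p under 0.05 on their own, so these values carry no test.

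With PAGE the share was higher from fewer cells in RBFOX2, while in hnRNPc the direction turned on replicate 1 of 50k. In RBFOX2 the share went from 1.49% and 1.74% for 50k to 4.38% and 3.36% for 10k, a 2.39-fold difference, and to 4.25% and 2.89% for 1k, a 2.18-fold difference. In hnRNPc it was 6.62% and 5.79% for 10k and 7.38% and 6.64% for 1k, between the 2 replicates of 50k. On the log2 scale hnRNPc 10k differed from 50k by -0.44, and by 0.80 when replicate 1 of 50k was left out. For 1k it was -0.26, and 0.98 without it. The amount of RNase fell with cell number in these groups, from 0.005 to 0.001 to 0.0001 U. The 10k and 1k libraries are also not numbered together with the 50k libraries in the series. Cell number, RNase and a difference of preparation between 50k and the others, if there was one, cannot be told apart.

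More RNase went with less mitochondrial signal in hnRNPA1, where the share was 0.593% and 0.496% with 0.025 U against 1.99% and 1.50% with 0.005 U, a 3.19-fold lower value. chrM peaks numbered 27 and 30 against 74 and 71. In hnRNPc the medium amount gave 3.37% and 3.60%, next to 3.55% in replicate 2 of the low amount, and the difference of -1.27 on the log2 scale shrank to -0.02 without replicate 1 of lowRNase. RNR2 exceeded RNR1 per length by 9.85-fold and 10.8-fold in hnRNPA1 with 0.025 U.

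The gel regions named Background held few peaks, and chrM made up 17 to 28 of the 100 with most reads. The 8 libraries had 21 to 33 chrM peaks, and those peaks held 1891 to 3907 reads per library in all. chrM made up 26.2% and 11.0% of listed reads at 150 to 250 kDa, 39.9% and 34.9% at 100 to 150 kDa, 1.27% and 0.598% at 75 to 100 kDa, and 29.1% and 28.4% at 50 to 75 kDa. hnRNPc from 10000 cells had 6.62% and 5.79%. The regions at 150 to 250, 100 to 150 and 50 to 75 kDa lay above it in both replicates, and the region at 75 to 100 kDa lay below it by summed reads.

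The low share at 75 to 100 kDa went with a larger list total, 288638 and 405472 reads against 9785 to 17210 in the other 6 libraries, and not with fewer chrM reads. A single peak outside chrM held 20.4% and 18.1% of the listed reads there. Without it the chrM share was 1.59% and 0.730%, still below the other regions. With reads times width the share at 75 to 100 kDa was 4.84% and 4.44%, against 13.9% to 42.6% in the other 6 libraries, and it lay above hnRNPc from 10000 cells, at 2.37% and 2.15%. In joined peaks it was 2.59% and 1.76% and overlapped hnRNPc, at 2.15% and 2.13%. The region at 150 to 250 kDa differed from hnRNPc 10k by 1.45 on the log2 scale, and by 0.83 without its replicate 1.

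In the gel region libraries the highest RNR2 peak lay in the 3′ part of the gene in 8 of 8, at 245 to 491 reads. The window chrM:2772-2895 was set as the span of these 8 peaks, so all of them lie in it by construction. In the other 60 libraries, which had no part in setting it, the highest RNR2 peak touched that window in 2. At 50 to 75 kDa it was chrM:2826-2894 with 356 reads in replicate 1 and chrM:2823-2893 with 402 in replicate 2. At 100 to 150 kDa it was chrM:2797-2863 with 335 reads and chrM:2772-2892 with 491.

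Mitochondrial peaks recurred between libraries more than peaks in general. With at least 1 nt shared on the same strand, a median of 89.3% of the chrM peaks of one replicate overlapped a peak of the other over 34 groups, against 45.8% of all peaks, and the chrM value was the higher one in 34 of 34 groups. Between 2 different proteins without PAGE, 81.0% to 89.0% of chrM peaks overlapped (median 85.5%), against 10.6% to 15.9% of all peaks (median 12.3%). Between crosslinked and non-crosslinked libraries of one protein without PAGE, the medians were 80.8% on chrM and 31.4% over all peaks. Peaks cover a large part of the + strand of chrM and carry many reads, and the part of coverage in the overlap was not tested.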

How the data were processed

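The authors deposited 1 list of peaks per library, called separately for each library with CLIPper as named by the files, with 8 columns and no header. Per the submitters' processing notes the tools were bcl2fastq, UMI-tools 1.0.1 and STAR 2.7.3a and the build was hg19. Each deposited p-value is that of the peak caller. The count in the peak name was read as reads over the peak. It is a deposited score whose meaning is not stated. How reads matching nuclear copies of mitochondrial DNA were treated is not given in the sources used here.

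Genes were named from a RefSeq table in which all 29 identifiers lay, to within 2 nt, in 1 mitochondrial gene. Coordinates are printed 1-based, with 1 added to the starts in the lists, which were read as 0-based. Shares of listed peaks and reads were taken as log2 (pseudocount 0.5) and tested with exact two-sided permutation tests within proteins, or across proteins, with Benjamini-Hochberg adjustment and a threshold of 0.05. The tests were checked on simulated data. Alternatives were p-values below 1e-05, peaks joined within 30 nt, at least 10 reads, a pseudocount of 5, reads times width, each library left out, and the replicate number as a block. Named peaks were, for each protein without PAGE, the 3 with the best read rank in both replicates, at most 1 per gene, and the stretches covered in most libraries; others were named after their values were seen. The peaks, gene classes and tests were chosen with earlier results of these data known. Python 3.11.15, numpy 2.4.6, pandas 2.3.3, scipy 1.17.1 and bedtools 2.31.1 were used.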

Additional observations from a re-analysis of the deposited data

Results flagged for a closer look

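2 effects went opposite ways in different proteins, in every replicate of each. Without PAGE the share of listed peaks on chrM was higher in both RBFOX2 replicates and lower in both hnRNPc replicates than with PAGE, with a gap of 3.87 between the log2 differences. The hnRNPc value rests on lowRNase replicate 1, whose list is short. With RecJ the share of listed reads on chrM was higher in both RBFOX2 replicates and lower in both hnRNPA1 replicates, with a gap of 0.59. With reads times width and in joined peaks the hnRNPA1 groups overlapped. Neither difference between proteins was tested.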

How the results depend on the processing

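Of the values that answer a comparison, 70 kept their direction and side of the threshold under another setting, or, with no test, moved by less than the replicate spread, and 204 did so with a library left out. Under another setting 8 untested values moved by more, 5 tests newly passed and 4 no longer passed. With a library left out 8 moved, 4 turned in sign, 5 newly passed and 15 no longer passed. The rise of the share of listed reads on chrM, without PAGE and without ultraviolet light, kept both under every alternative run. The RecJ difference in the share of peaks passed an unadjusted exact permutation test at p-values below 1e-05 (0.15), in joined peaks (0.10) and at 10 reads or more (0.14). The rise of the share of peaks without ultraviolet light and with PAGE was 1.87 in joined peaks (p = 0.0694, exact permutation test). Proteins with PAGE made up 66.0% of the variance of the share of peaks at p-values below 1e-05 and 58.5% at 10 reads or more, and both passed. At p-values below 1e-05 the log2 difference of RBFOX2 1k from 50k became 1.72, and those of the gel regions from hnRNPc 10k became 2.02 (100 to 150 kDa), -3.46 (75 to 100 kDa) and 1.69 (50 to 75 kDa). With an overlap of at least 50% of a peak, medians were 79.5% on chrM and 8.29% over all peaks between proteins, and 73.1% and 23.2% with and without ultraviolet light. With reads times width the RNR2 difference without PAGE became -0.017, that of + strand mRNAs with RecJ -0.0099 and that of + strand mRNAs without ultraviolet light and PAGE -0.10. The number of chrM peaks with RecJ became 0.0095 in joined peaks. The cause of these changes was not tested.

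With each library left out in turn, log2 differences ran as follows. Without PAGE the share of peaks ran from -0.69 to 0.59 and RNR1 from -0.11 to 0.078. With RecJ the share of peaks ran from 0.044 to 0.13, the number of chrM peaks from -0.017 to 0.0080, the + strand mRNAs from -0.0070 to 0.051 and ND6 from -0.0014 to 0.089. Without ultraviolet light the share of peaks with PAGE ran from 1.44 to 2.72 and ND6 without PAGE from -0.14 to 0.076. Against hnRNPc lowRNase, 10k ran from -1.68 to 0.80, 1k from -1.50 to 0.98 and mediumRNase from -2.51 to -0.024. Against hnRNPc 10k, 150 to 250 kDa ran from 0.83 to 2.08 and 75 to 100 kDa from -3.37 to -2.29. The variance between proteins with PAGE ran from 82.6% to 99.5% for reads and from 51.1% to 99.4% for peaks, and without PAGE from 99.4% to 99.8% for peaks.

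Whether the replicate numbers pair the samples is not known. The correlation of the deviations over 29 genes ran from -0.561 to 0.318 over 18 pairs of groups. It was above 0.1 in 6 of them, among which were 4 of the 6 RecJ pairs. With 2 libraries per group these correlations cannot decide whether samples were paired. With the replicate number as a block, 3 calls of the planned tests were lost before adjustment by the exact permutation test: the share of peaks without ultraviolet light with PAGE (2.08, p = 0.0781), and the variance between proteins for reads with PAGE (86.8%, p = 0.0833) and for peaks without PAGE (99.6%, p = 0.0833). Of the added tests, 4 were lost in the same way: the variance between proteins without PAGE for + strand mRNAs (99.6%, p = 0.0833) and RNR2 (95.4%, p = 0.125), the number of chrM peaks without ultraviolet light and PAGE (0.21, p = 0.0781) and the tRNAs with RecJ (0.25, p = 0.0503, exact permutation tests). The block leaves fewer relabellings. Depth is unknown, so no limit of detection was computed.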
